A study of Homo sapiens with 4 samples.

Results

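The interferon-stimulated genes and the genes of class I antigen presentation were followed through 4 expression arrays of HuH7, an established human hepatocellular carcinoma cell line. A fixed list of 43 gene symbols defined the set. Of these, 42 genes were measured among the 19775 genes on the array: 28 interferon-stimulated genes, 13 class I genes, and CD74, the invariant chain of class II molecules. The sensor listed as DDX58 was found under its newer symbol RIGI, and STAT2 is not analysed here. Each gene is represented by its brightest probeset over the 4 arrays, avoiding probesets whose names mark possible cross-hybridization (ending _x_at) unless no other existed, as was the case for 4 members (IFITM2, IFITM3, HLA-B and HLA-C).

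Parental HuH7-F0 cells had 2 arrays, called F0 (1) and F0 (2). The drug-refractory HuH7-F6 and HuH7-F12 cells had 1 array each and came from tumors carried in NOD/SCID mice, which were given the VEGF receptor and aurora kinase inhibitor JNJ-28841072 and whose resistant tumors were passed on to new mice 6 or 12 times. The phenotype label of both resistant samples speaks of sorafenib and of a subclone, so the labels conflict on the drug. NOD/SCID hosts lack T and B cells but keep myeloid and stromal cells. RNA came from tissue specimens, whether the parental cells had been grown in mice is not stated, and no array represents untreated tumors carried through as many mice, so drug and passage cannot be told apart.

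Interferons bind receptors on the cell surface and, through Janus kinases, activate a factor made of STAT proteins and IRF9. This factor binds the interferon-stimulated response element in the promoters of antiviral genes such as the IFIT, OAS, MX and ISG15 genes. The same cytokines raise the machinery of class I presentation: the immunoproteasome cuts proteins into peptides, the TAP transporter carries them into the endoplasmic reticulum, ERAP1 trims them, and they are loaded on HLA heavy chains with the light chain B2M. The transactivator NLRC5 drives many of these class I genes. In liver cancer cells, class I display determines what cytotoxic T cells can see.

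The response element is shown here because it is a sequence that many, though not all, of the listed genes are known to share. RefSeq promoters of assembly GRCh38.p14, running from 250 bases before to 50 after each annotated start, were available for 33 of the 42 measured members. The letters GAAANNGAAA, or TTTCNNTTTC on the opposite strand, occurred in 28 of 41 member promoters (68.3%) and in 3.57% of all 35116 promoters. They were present in 20 of 26 promoters of interferon-stimulated genes and in 8 of 14 of class I genes. The interferon gamma activated site, searched as TTCNNNGAA (its own reverse complement), occurred in 11 of 41 member promoters (26.8%) and 7.66% of all promoters, and overlapped the first motif in 4 members (BST2, IFI27, IFITM1 and MX1). These are matches of letters and not measured binding. The 9 stretches that follow belong to members whose signals are described further on, and are written 5′ to 3′ on the strand of the gene with every complete GAAANNGAAA or TTTCNNTTTC match before the start in capitals.
IFIT1, chr10:89392500-89392549, plus strand: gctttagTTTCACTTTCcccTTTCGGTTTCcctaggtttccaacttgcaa
IFIT5, chr10:89414523-89414567, plus strand: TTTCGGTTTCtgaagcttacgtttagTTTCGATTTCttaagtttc
IFIT3, chr10:89327855-89327904, plus strand: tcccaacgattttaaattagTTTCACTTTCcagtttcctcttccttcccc
ISG15, chr1:1013370-1013419, plus strand: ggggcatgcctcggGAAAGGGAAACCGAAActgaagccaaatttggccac
IFI6, chr1:27672256-27672307, minus strand: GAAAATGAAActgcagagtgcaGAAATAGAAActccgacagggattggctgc
BST2, chr19:17405725-17405774, minus strand: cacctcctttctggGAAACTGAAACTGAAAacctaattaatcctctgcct
TAP1, chr6:32853803-32853852, minus strand: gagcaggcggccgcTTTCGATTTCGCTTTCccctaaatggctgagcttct
PSMB10, chr16:67936851-67936891, minus strand: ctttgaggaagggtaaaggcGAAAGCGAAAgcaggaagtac
B2M, chr15:44711359-44711408, plus strand: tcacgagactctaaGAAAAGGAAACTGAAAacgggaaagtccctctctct

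In IFIT1 the matches began at -116 and -103 from the annotated start, in ISG15 at -113 and -107, and in PSMB10 at -21. The ISG15, BST2, TAP1 and B2M stretches each hold a pair of matches that share their middle letters. The windows of OAS1, PSMB9, IRF1, IRF9, IFI35, RIGI, HLA-B, HLA-C and CD74 held no match to these letters. MX2 was among the members without a promoter to search. OAS1, IRF1, IRF9 and IFI35 did hold TTCNNNGAA.

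All signals in this report are deposited log2 values, on which 1 unit is a doubling, and a signal under 6 is called near background here. Array medians over all probesets lay between 4.67 and 4.85. On every array 19 members read 6 or more, while 13 stayed under 6 on all of them by the probesets used, among them MX1, OAS2, OASL, IFI27, IFI44, IFI44L, IRF7 and NLRC5. Of all 19775 genes, 6108 read 6 or more on every array and 7847 stayed under 6 on all of them. The parental arrays differed widely, by at least 2-fold for most genes of the series, so many of the differences from their mean below fall inside their spread. Hepatocellular character was visible in the liver genes ALB (10.18 on F0 (1), 13.75 on F0 (2), 12.41 on F6, 13.58 on F12) and TF. All 9 measured liver markers reached 6 on 1 array or more, but APOA1 was lower on F0 (2) and F12 (5.20 and 5.28). Of 8 myeloid markers 7 stayed under 6 on every array, including PTPRC and CD163, with LYZ the exception (8.34 to 11.98). Of the T, NK and B cell markers, CD3D reached 7.14, CD79A 6.52, CD3E 6.24 and CD8A 6.09, and the others stayed under 6. The probesets are annotated to human genes, so low marker signals do not show that mouse host cells were few. Tissue arrays cannot tell fewer cells of a type from less RNA per cell.

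The members were mostly brightest on F0 (1). That array was the highest of the 4 for 29 of 42 members, against 54.8% of all genes, with nearly equal shares among interferon-stimulated genes (19 of 28) and class I genes (9 of 13). At least 2-fold higher on F0 (1) than on F0 (2) were 18 members (34.1% of all genes), and 5 were at least 2-fold higher on F0 (2) (25% of all genes). The first 18 included ISG15, IFI6, IFI35, OAS1, IRF9, HLA-B, TAP1, TAP2, PSMB9 and PSMB10. The 5 on the other side were IFIT5, HERC5, IFIH1, B2M and ERAP1. Of class I presentation, the light chain B2M and the trimming enzyme ERAP1 were thus brighter on F0 (2), and PSMB9, PSMB10, both TAP genes and HLA-B on F0 (1).

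**Figure D1:**
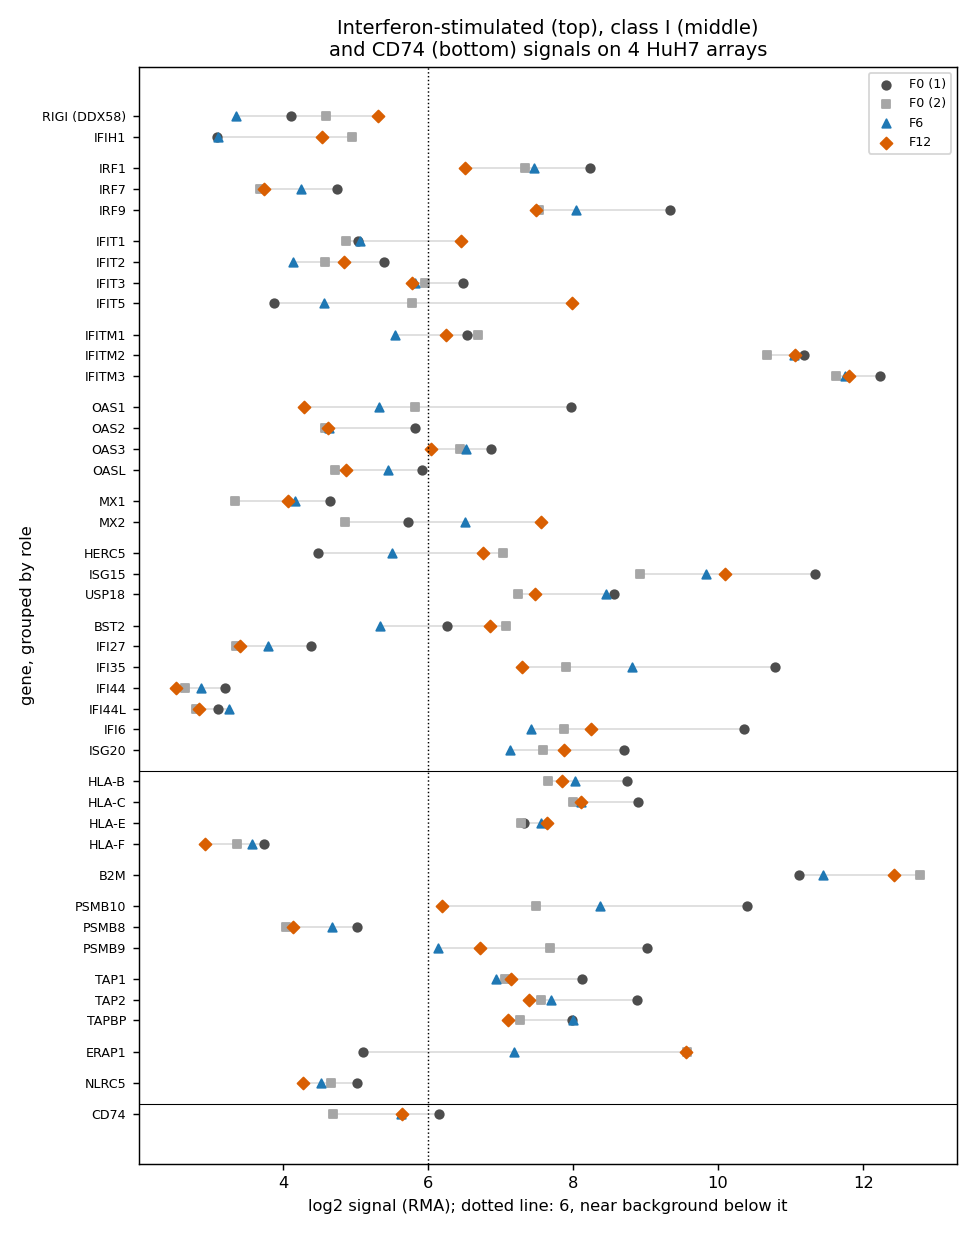
Log2 signal of each of the 42 measured members on F0 (1), F0 (2), F6 and F12, grouped by role, with 1 symbol per array. F0 (1) is the rightmost symbol for 29 members, and IFIT5, IFIT1 and MX2 have F12 clearly to the right of both F0 symbols.

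F6 was set against F0 to see what differed after 6 passages under treatment. The median difference from the F0 mean was -0.28 for interferon-stimulated genes and -0.31 for class I genes, against 0.06 over all genes. Below both F0 arrays on F6 were 11 of 42 members, against 10.4% of all genes, and 5 were above both (13.3% of all genes). The 11 were IFI6, IFIT2, IFIT3, IFITM1, ISG20, OAS1, RIGI, BST2, TAP1, PSMB9 and NLRC5, of which IFIT2, RIGI and NLRC5 were near background throughout. Both medians depended on the parental array. Against F0 (1) alone they were -0.56 and -0.49 (all genes -0.20), and against F0 (2) alone 0.12 and 0.14 (all genes 0.33). In each case both lay under the median of all genes. With values under 6 set to 6, the median of interferon-stimulated genes was 0, as was that of all genes, and that of class I genes was -0.33.

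PSMB9, an immunoproteasome subunit encoded beside TAP1, was the only member at least 2-fold below both parental arrays on F6. It read 9.02 on F0 (1), 7.69 on F0 (2), 6.14 on F6 and 6.71 on F12. Both resistant arrays were thus below both parental ones, F6 by 2.93-fold and F12 by 1.97-fold from the nearer F0 array. Over all genes 0.561% were at least 2-fold below both F0 arrays on F6, and 0.576% at least 2-fold above both, where no member was. Against F0 (1) alone 12 members were at least 2-fold lower on F6 (4.13% of all genes) and 2 higher (17.1%). Against F0 (2) alone 9 were lower (20.3% of all genes) and 2 higher (15.8%), and PSMB9 was lower in each comparison.

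TAP1, which forms the peptide transporter with TAP2, had signals of 8.12, 7.06, 6.93 and 7.15 in the same order of arrays. Only F0 (1) stood apart for this gene, and F6 lay 0.13 under F0 (2). The 3 immunoproteasome subunits did not share a pattern on F6. On F12, PSMB9 and PSMB10 were each below both parental arrays, and PSMB8 was inside the parental range. PSMB8 stayed near background (4.05 to 5.02). PSMB10 read 10.40 and 7.49 on the parental arrays and 8.38 on F6, between them. The constitutive subunit that PSMB9 replaces, PSMB6, read 13.26, 11.89, 12.26 and 11.36, so F6 lay between the F0 arrays for that gene.

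Several antiviral effectors were also lowest on F6, by less than 2-fold. BST2, or tetherin, which holds budding virus at the cell surface, read 6.27 and 7.08 on the F0 arrays, 5.34 on F6 and 6.85 on F12. F6 alone was below the parental range for this gene, while F12 was inside it. IFITM1, a membrane protein that blocks virus entry, read 6.54 and 6.69 on the F0 arrays, which lay close together (SD 0.106), and 5.55 on F6 and 6.25 on F12. IFI6, a membrane protein of mitochondria and the endoplasmic reticulum, read 10.36 on F0 (1), 7.87 on F0 (2), 7.43 on F6 and 8.25 on F12. The exonuclease ISG20 followed the same order, at 8.71, 7.59, 7.13 and 7.88, and its other probeset, at 8.59, 7.28, 6.80 and 7.74, did too. In each of these genes F6 was the lowest array, and in IFI6 and ISG20 its distance from F0 (2) was far smaller than the gap between the parental arrays.

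F12 was likewise set against F0, for 12 passages. The median difference from the F0 mean was -0.32 for interferon-stimulated genes and -0.44 for class I genes, and -0.24 over all genes. Against F0 (1) alone the medians were -0.69 and -0.88 (all genes -0.54), and against F0 (2) alone 0.052 and -0.17 (all genes 0.032). With values under 6 set to 6 they were 0 and -0.33, and 0 over all genes. Below both F0 arrays were 14 of 42 members (30.4% of all genes) and above both were 5 (19.5% of all genes). The first share is near that of all genes and the second is lower. Among interferon-stimulated genes 4 were above and 8 below, and among class I genes 1 was above (HLA-E) and 6 below. Individual genes went far in opposite directions. IFIT1, IFIT5 and MX2 were at least 2-fold above both parental arrays (1.93% of all genes), and OAS1 and PSMB10 at least 2-fold below both (1.37% of all genes). Set against F0 (1) alone, 8 members were at least 2-fold higher on F12 (25% of all genes) and 13 lower (32% of all genes). Set against F0 (2) alone, 4 were higher (2.99% of all genes) and 2 lower (3.78% of all genes).

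**Figure D2:**
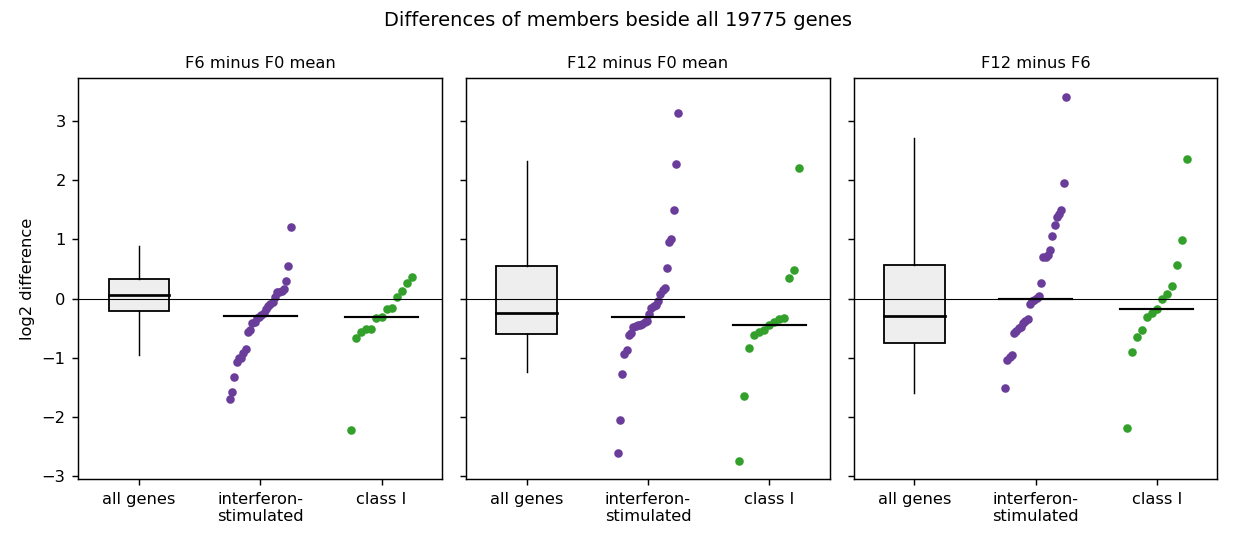
Log2 differences of F6 and F12 from the F0 mean and of F12 from F6, for interferon-stimulated and class I genes. Each gene is 1 point, sorted within its list, with a line at the list median, and CD74 is not drawn. Boxes span the quartiles of all genes, and whiskers the 5th to 95th percentile. The F6 medians of both lists (-0.28 and -0.31) lie under that of all genes (0.06), and the F12 points spread from -2.75 (PSMB10) to 3.15 (IFIT5).

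IFIT proteins bind viral RNA that lacks the cap marks of host messages. IFIT5 read 3.88 on F0 (1), 5.78 on F0 (2), 4.57 on F6 and 7.98 on F12. F12 was the only array with a signal above background, 4.58-fold above F0 (2), the higher parental array, which was itself near background. Its other probeset was also highest on F12, at 6.12, with the remaining arrays at 4.75, 4.501 and 4.51. IFIT1, the neighbouring gene, read 5.04, 4.87, 5.07 and 6.45. Here the first 3 arrays were close to each other (F0 SD 0.122) and near background, and F12 was 2.66-fold above the higher of the F0 arrays. With values under 6 set to 6 IFIT1 no longer passed the 2-fold rule, while IFIT5 and MX2 did. The other IFIT genes of the same cluster did not follow. IFIT3 read 6.48, 5.96, 5.81 and 5.77, with F12 lowest, although its other probeset (3.24, 6.12, 3.20 and 5.88) gave another order, with F0 (2) and F12 high. IFIT2 stayed near background (4.14 to 5.40). All of IFIT1, IFIT3 and IFIT5 carry matches to the response element before their starts, printed above.

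MX2, a GTPase that traps viral capsids at the nuclear pore, read 5.73 and 4.86 on the F0 arrays, 6.51 on F6 and 7.56 on F12. Both resistant arrays were above both parental ones, F6 by 1.72-fold and F12 by 3.57-fold from the nearer F0 array, which was itself near background. Its neighbour MX1, often used as a readout of interferon action, stayed near background on all arrays (4.65, 3.35, 4.16 and 4.07).

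OAS enzymes sense double-stranded RNA and make the oligoadenylates that activate RNase L. OAS1 read 7.98 on F0 (1), 5.82 on F0 (2), 5.33 on F6 and 4.29 on F12. The resistant arrays were both below the parental ones, F12 by 2.90-fold from F0 (2), and every value but that of F0 (1) was near background. Its other probeset read 5.89, 5.80, 4.14 and 4.23, with the parental arrays level and the resistant arrays lower. OAS3, encoded next to OAS1, read 6.86, 6.45, 6.53 and 6.04, with F12 lowest. Its other, dimmer probeset read 6.25, 5.24, 4.76 and 4.28, with both resistant arrays below both parental ones and only F0 (1) above 6. OAS2 and OASL stayed under 6.

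PSMB10, the immunoproteasome counterpart of PSMB7, read 10.40 on F0 (1), 7.49 on F0 (2), 8.38 on F6 and 6.20 on F12. F12 was 2.45-fold below the lower F0 array. The parental arrays differed by 7.5-fold for this gene, more than F12 did from the nearer of them. PSMB7 itself read 13.04, 11.44, 12.31 and 10.91, in the same order and with a narrower range. The proteasome genes PSMB5 (12.57, 11.18, 11.86 and 10.27) and PSMB6 were likewise lowest on F12, by less than 2-fold.

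**Figure D3:**
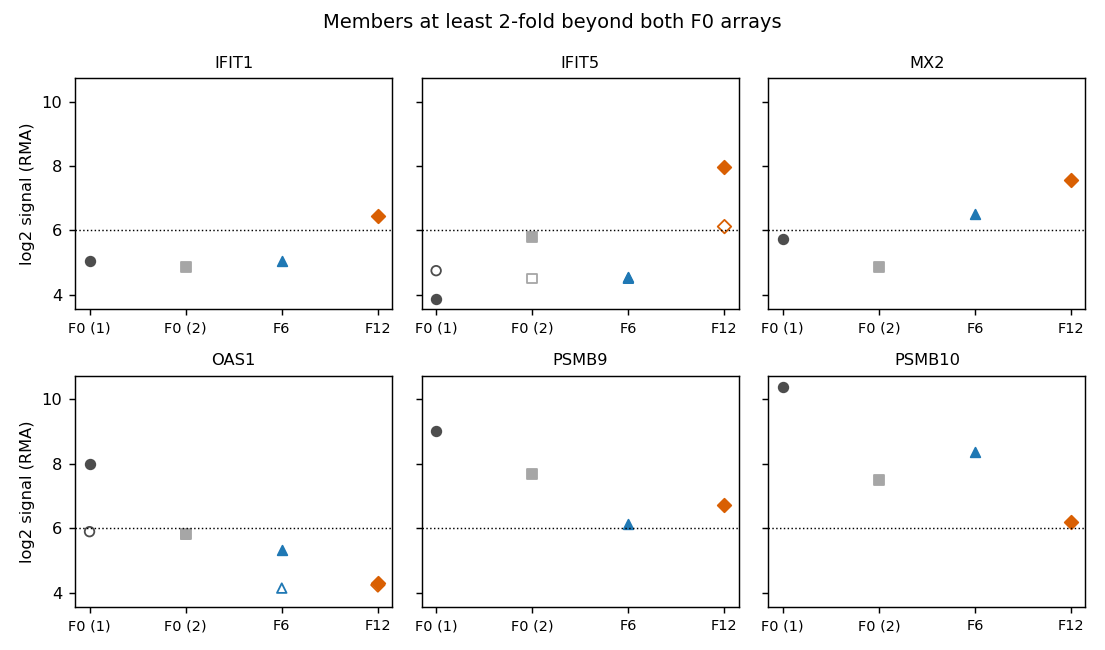
Log2 signal on each array for the 6 members at least 2-fold beyond both F0 arrays on F6 or F12. Filled symbols are the probeset used and open symbols the other probeset of IFIT5 and OAS1, which overlap on some arrays. F12 is the highest array for IFIT1, IFIT5 and MX2, and the dotted line marks 6, below which signals are near background.

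By the probesets used, B2M, HLA-B and HLA-C on the resistant arrays stayed inside the parental range. B2M read 11.12 on F0 (1), 12.79 on F0 (2), 11.44 on F6 and 12.43 on F12, and its other bright probeset gave 10.88, 12.87, 11.35 and 12.58. F6 sat near F0 (1) and F12 near F0 (2). HLA-B read 8.74, 7.65, 8.02 and 7.84, and HLA-C 8.90, 7.997, 8.11 and 8.12, with F0 (1) brightest for each. These 2 genes are measured only by probesets that may detect other HLA genes, and the probesets differ. Of 4 for HLA-C, a pair put F6 below both parental arrays (7.56 against 8.54 and 7.97, and 7.29 against 8.36 and 7.94). The other HLA-B probesets put F12 slightly below both (6.54 against 8.01 and 6.58, and 6.47 against 8.0 and 6.57). HLA-E, which presents leader peptides to NK cell receptors, had the narrowest parental gap of all members (7.32 and 7.28, SD 0.030) and read 7.56 on F6 and 7.64 on F12. Both were above the parental pair, by 1.18-fold and 1.25-fold from the nearer array. Its brighter _x_at probesets put both inside a wider parental range, at 10.21, 9.44, 10.19 and 9.88 and at 9.30, 8.51, 9.16 and 8.94. HLA-F read between 2.93 and 3.73 by the probeset used, whereas its brighter _x_at probeset read 7.78, 6.36, 6.99 and 6.53, so its level depends on that choice.

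Of the remaining class I genes, ERAP1 had the widest parental gap of all members. It read 5.11 on F0 (1), 9.57 on F0 (2), 7.19 on F6 and 9.55 on F12, so F12 and F0 (2) were alike and F6 lay in the middle. Another of its probesets, at 4.93, 5.202, 4.997 and 5.12, varied little and stayed near background. TAP2 read 8.88, 7.56, 7.70 and 7.39, although another probeset gave a different order (3.62, 6.86, 3.98 and 5.92). The loading factor tapasin (TAPBP) read 7.99, 7.27, 7.999 and 7.10. F12 was the lowest array for both genes by the probesets used, by less than 0.2 from F0 (2). Another TAPBP probeset read 7.55, 4.98, 7.42 and 5.25, with both resistant arrays inside the parental range. NLRC5 was near background throughout (4.27 to 5.01). CD74 also stayed low, at 6.15, 4.70, 5.63 and 5.65.

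ISG15, the ubiquitin-like modifier, read 11.33 on F0 (1), 8.92 on F0 (2), 9.83 on F6 and 10.09 on F12. Its ligase HERC5 read 4.48, 7.03, 5.50 and 6.76, the opposite order on the parental arrays. The protease USP18, which removes ISG15 and dampens the receptor, read 8.57, 7.24, 8.45 and 7.47. In all 3 genes F6 and F12 lay between the parental arrays. Of the transcription factors, IRF9 read 9.33, 7.53, 8.04 and 7.49, and IRF1, the early factor of the interferon gamma response, 8.24, 7.34, 7.46 and 6.51. F12 was 1.78-fold below the lower F0 array for IRF1, and its other probeset (7.05, 6.46, 6.32 and 5.71) was also lowest on F12. IFI35, an interferon-induced leucine zipper protein, read 10.78, 7.90, 8.81 and 7.29, lowest on F12.

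IFITM2 (11.18, 10.67, 11.05 and 11.07) and IFITM3 (12.23, 11.63, 11.76 and 11.81) were among the brightest members, with resistant arrays inside the parental range. Both rest on probesets that may be shared between the near-identical IFITM genes. The sensors of viral RNA were near background by the probesets used. RIGI read 4.11, 4.60, 3.35 and 5.30, whereas its brighter _x_at probeset read 5.27, 6.04, 5.81 and 6.16, with F6 inside the parental range. IFIH1 read 3.09, 4.95, 3.11 and 4.54. Its other probesets were not higher on F12 than on F6 (2.81 against 2.88, and 2.23 against 2.29).

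F12 was set against F6 for the difference between later and earlier passages. At least 2-fold higher on F12 were 8 of 42 members (20.2% of all genes), and 3 were at least 2-fold lower (14.7% of all genes). The share of members higher on F12 is near that of all genes, and the share lower is smaller. The 8 were IFIT5, ERAP1, RIGI, BST2, IFIH1, IFIT1, HERC5 and MX2, of which 7 are interferon-stimulated genes and ERAP1 a class I gene. The 3 lower were PSMB10, IFI35 and OAS1, each also at least 2-fold higher on F0 (1) than on F0 (2). Of the 8 higher, IFIT5, ERAP1, IFIH1 and HERC5 were also at least 2-fold higher on F0 (2) than on F0 (1). BST2 and RIGI leaned the same way by less than 2-fold, while IFIT1 and MX2 were lower on F0 (2). Over all genes, 34.1% were at least 2-fold higher on F0 (1) than on F0 (2), and 25% the other way. How many of all genes combine both differences was not counted, so this overlap is not shown to be particular to the members. Whether the differences between F12 and F6 go with passage or with the gap between the parental arrays was not tested. For IFIT5 the difference was 3.41, or 10.7-fold, with F6 near background, and 1.61 by its other probeset. The difference for BST2 was 1.51. The list medians were -0.00 for interferon-stimulated genes and -0.18 for class I genes, against -0.29 over all genes.

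Differences were tested in limma with 3 groups and p-values adjusted by the Benjamini-Hochberg method over all 19775 genes. No gene passed an adjusted p of 0.05 in any comparison (0% of all genes), and no member had an unadjusted p under 0.05, while over all genes 7, 85 and 116 did in F6 against F0, F12 against F0 and F12 against F6. The smallest unadjusted limma p among members was 0.0709 for IFIT5 in F12 against F0 (log2 difference 3.15, SE 1.74) 0.204 for PSMB9 in F6 against F0 (-2.21, SE 1.74) and 0.0896 for IFIT5 in F12 against F6 (3.41, SE 2.01), and every member had an adjusted p of 1. The SE rests on the spread of the parental pair pooled over all genes, is the same for every gene, and does not reflect the closeness of the F0 arrays for genes such as IFIT1 or IFITM1.

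Other genes of the pathway, listed alongside, give the surroundings of these values. Over all genes, 0.576% were at least 2-fold above both F0 arrays on F6 and 0.561% at least 2-fold below both. On F12 these shares were 1.93% and 1.37%. None of 8 interferon ligand genes reached 6 on any array, and IFNB1 peaked at 4.16. Among 13 receptor and signalling genes, the kinase JAK1 was at least 2-fold above both F0 arrays on F12 (6.22, 10.19, 9.41 and 11.21), and the feedback inhibitor SOCS3 at least 2-fold below both on F6 and F12 (7.79, 6.66, 5.201 and 4.09). Of 23 further interferon-induced genes, 2 were at least 2-fold below both F0 arrays on F6 and none above. They were LGALS3BP, a secreted glycoprotein (7.17, 7.53, 5.57 and 6.61), and UBE2L6, the conjugating enzyme of ISG15 (10.56, 10.18, 8.87 and 9.76), and for each the parental arrays lay close together. The median of this list on F6 was -0.39 from the F0 mean, against 0.06 over all genes. On F12, SP100 (5.21, 6.20, 5.18 and 7.33) and SAMD9 (2.88, 3.11, 2.26 and 4.24, all near background) were at least 2-fold above both. None of 11 nucleic acid sensing genes and none of 11 peptide loading and proteasome genes passed the 2-fold rule. Of 11 class II genes, HLA-DMA (8.01, 6.74, 5.48 and 6.07) and HLA-DMB (7.85, 7.43, 5.39 and 5.77), which load class II peptides, were at least 2-fold below both F0 arrays on F6, and HLA-DMB on F12 as well, whereas HLA-DRA stayed under 6. The myeloid markers named above had medians of 5.196, 4.11, 4.82 and 4.17 on the 4 arrays, and their part in these values was not tested.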

How the data were processed

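Total RNA of 4 samples was hybridised to a 3'-directed expression array. The deposited log2 values, 1 per probeset and array, were made by the authors with RMA in the affy package, per the submitters' processing notes. Their version and options were not given in the sources used here. RMA usually equalises probe distributions between arrays, which can hide a shift of most genes. The upper quartile of the deposited values still ranged from 6.33 on F0 (1) to 6.96 on F0 (2), with 6.53 on F6 and 6.90 on F12. No depth stands behind array values, so the number of arrays limits precision.

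Of 54613 probesets, 41091 had 1 gene symbol in the platform annotation, 1801 several and 11721 none. Symbols were updated through Entrez numbers to RefSeq (GRCh38.p14). Each gene kept its brightest probeset over the 4 arrays, passing over _x_at probesets where possible. Groups were taken from the sample titles.

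limma 3.58.1 in R 4.3.3 fitted F0, F6 and F12 as 3 groups (the F0 pair leaves 1 residual degree of freedom), with a threshold of 0.05 after Benjamini-Hochberg adjustment. The fit was run on simulated data with known changes, but calling them was required only at a spread smaller than the pooled SD here (1.42). That run therefore does not show which changes could be detected in these data. The labels do not say that the F0 samples were separate cultures, so p-values may measure technical spread. Genes at least 2-fold beyond both F0 arrays were counted over members and all genes.

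Members with such a difference and a signal of at least 6 on 1 array were named first, then those farthest from the F0 mean, and the others by role. The rule allowed full values for 25 members. More were given, and genes such as PSMB5, PSMB6 and PSMB7 were added for context, after their values were seen. Members, lists and rules were chosen with earlier results of these data known. The added pathway lists held 9 ligand, 14 receptor and signalling, 13 sensing, 24 induced, 12 loading and proteasome, and 12 class II symbols. Markers of liver, myeloid, T and NK, B, endothelial and fibroblast cells were listed too. Endothelial and fibroblast markers peaked at 6.92 (PECAM1) and 6.18 (PDGFRB). Alternatives covered the probeset rule, a minimum signal, scaling, a floor at 6, each F0 array, and position between the F0 arrays.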

Additional observations from a re-analysis of the deposited data

Results flagged for a closer look

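By the probesets used, RIGI and TAPBP lay on opposite sides of the parental pair on the 2 resistant arrays. RIGI was below both F0 arrays on F6 and above both on F12, a difference of 1.95 between F12 and F6 on the log2 scale, and its other probeset without possible cross-hybridization gave the same order (4.08 and 4.31 on the F0 arrays, 3.81 on F6 and 4.90 on F12). All of these signals were near background, and the brighter _x_at probeset (5.27 and 6.04, then 5.81 and 6.16) put F6 inside the parental range. TAPBP was above both on F6, by 0.01 from F0 (1), and below both on F12, with F12 lower than F6 (-0.90). Its other probesets did not place F6 above both, at 7.55 and 4.98 on the F0 arrays, 7.42 on F6 and 5.25 on F12, and at 6.15, 5.48, 5.52 and 4.62. With 1 array each, neither difference between F6 and F12 was tested beyond the limma fit, where both had an adjusted p of 1.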

How the results depend on the processing

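Of 50 recomputed list medians 36 kept their sign, 4 became 0 and 10 changed sign. The 4 arose with values under 6 set to 6, for interferon-stimulated genes in each comparison and for class I genes in F12 minus F6. For F12 minus F6, interferon-stimulated genes gave 0.036 with the mean of probesets, 0.16 with a minimum log2 of 6 on 1 array, 0.12 with centred arrays and 0.59 with position between the F0 arrays subtracted, in place of -0.00. Class I genes gave 0.051 with the mean of probesets, 0.042 with the minimum and 0.24 with position subtracted, in place of -0.18. Leaving out each F0 replicate moved the F6 median between -0.56 and 0.12 for interferon-stimulated genes and between -0.49 and 0.14 for class I genes, and the F12 median of interferon-stimulated genes between -0.69 and 0.052, the positive values arising without F0 (1). For class I genes the F12 median lay between -0.88 and -0.17. With position subtracted the F12 medians were -0.029 and -0.080. The cause of these changes was not tested. With the mean of probesets 1 gene passed in F12 against F0 (BEX1, no member), and in the other 16 alternative fits none did. No test remains without an F0 array.

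Counts of members 2-fold beyond both F0 arrays were 0 above and 1 below on F6, and 3 above and 2 below on F12. With the mean of probesets 2 were below on F6 (OAS1 and PSMB9), and with values under 6 set to 6 only 1 was below on F12 (PSMB10) and 2 above (IFIT5 and MX2, without IFIT1). At 4-fold, 1 was above on F12 (IFIT5), and 0 were below on F6 or F12. Leaving out each F0 array, an alternative added after seeing the data, gave 2 above and 9 to 12 below on F6, and 4 to 8 above and 2 to 13 below on F12. Over all genes the matching shares were 15.8% to 17.1% above and 4.13% to 20.3% below on F6, and 2.99% to 25% above and 3.78% to 32% below on F12. Including _x_at probesets, or leaving out members that have only these, were also added later and changed no sign or count by over 1.5 times. No paired analysis was possible because F6 and F12 have 1 array each and carry no replicate number. Signals under 6 limit what can be said of 13 members.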
